A study of Mus musculus with 2 samples.

Results

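The genes described here are the collagens other than those of cartilage, together with the laminins. They were chosen by symbol alone: every gene named as a collagen chain or as a laminin alpha, beta or gamma chain was taken, and Col2a1, Col10a1 and the type IX and type XI chains were left out. The rule gave 48 of the 32285 genes in the files, 37 collagens and 11 laminins, and 7 cartilage collagens were set aside. Expression was measured by single-cell RNA sequencing in GL261, a mouse glioma line of the C57BL/6 strain that the labels call an astrocytoma. There was 1 library of adherent cells, grown in DMEM with 10% serum, and 1 library of neurosphere cells. The neurosphere cells came from the same medium with EGF, FGF (both 20 ng/ml) and the supplement B-27 added, and were collected after 12 days as floating spheres. Adherent cells were detached with trypsin. The spheres were broken up by pipetting, after trypsin according to the labels, whereas the study's methods name pipetting alone. Both were frozen before the droplet libraries were made, and matrix protein around the cells was not measured.

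Collagens are triple helices of polypeptide chains, and many types need chains from more than 1 gene. Fibrillar collagens (types I, II, III, V, XI, XXIV and XXVII) form the cables of connective tissue, type IV collagen forms the net of basement membranes, and type VI forms beaded filaments close to cells. The fibril-associated collagens sit on the surface of fibrils, the transmembrane collagens span the plasma membrane, and the multiplexins (types XV and XVIII) lie in basement membrane zones. Laminins are cross-shaped trimers of an alpha, a beta and a gamma chain that start the assembly of basement membranes. In the healthy brain these proteins are largely kept to blood vessels and the meninges, and gliomas are known to deposit some of them.

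After the filters, 5051 adherent and 4276 neurosphere cells were kept, with medians of 8260 and 13198.5 unique molecular identifiers (UMIs, each marking 1 captured transcript) per cell. The summed depths were 46290996 and 64943938 UMIs, and 9 cell barcodes occurred in both sets of kept cells. Levels are given as CPM, the UMIs of a gene per 1000000 UMIs of the library, without mitochondrial and ribosomal protein genes. Since there was 1 library per culture, no test between the cultures was possible. All intervals are exact 95% intervals and cover counting error only, not the spread between cultures. Of the astrocyte and glioma markers, S100b, Nes, Vim, Sox2 and Olig2 were present in both libraries, whereas Aqp4 had no UMI in either and Gfap had 30 and 27 UMIs. At a count of 0, taken as a limit of 3 UMIs per library, a level of up to 0.0648 CPM (adherent) or 0.0462 CPM (neurosphere) was allowed.

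The collagens and laminins were rearranged between the cultures rather than moved in 1 direction. Together they made up 367 CPM of the adherent and 898 CPM of the neurosphere library. Collagen transcripts in sum were 3.55-fold higher in neurosphere cells, at 836 against 235 CPM, and laminin transcripts were 2.11-fold lower, at 62.5 against 132 CPM. The collagen sum rested largely on Col1a1, Col3a1 and Col18a1. These held 39.4%, 21.3% and 15.7% of the collagen UMIs of neurosphere cells, beside 1.07%, 1.64% and 5.54% in adherent cells. Of the 48 genes, 30 had at least 50 UMIs over both libraries. Among these, 10 were over 2-fold higher in neurosphere cells (33.3%, beside 21.7% of all 14654 genes with that many UMIs) and 12 were over 2-fold lower (40%, beside 11.7%). The other 8 (26.7%) lay within 2-fold, as did 66.6% of all genes. All 10 genes that rose were among the 22 collagens with at least 50 UMIs, of which 8 fell. Of the 8 laminins with at least 50 UMIs 4 fell and none rose, beside the 21.7% of all genes that rose, so 8 genes are few for a contrast.

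The middle of the distribution of fold changes says little about these genes, because they were spread widely. Their median log2 fold change (neurosphere over adherent) was −0.37 and their interquartile range 4.10, against a median of 0.32 and a range of 1.22 for all genes. The median of the 22 collagens was 0.49 and that of the 8 laminins −1.19. The minimum was set on the sum of both libraries, and it was reached in each library alone by 19 genes, of which 5 rose and 9 fell. It was reached only in neurosphere cells by 4 genes, all of which rose, and only in adherent cells by 3, of which 2 fell, so these counts describe the genes and are no measure against other genes. The split among all genes also moved with the scaling. With the TMM scaling of edgeR, 16.1% of all genes were higher and 14.5% lower, and their median moved to 0.11, while 10 of the collagens and laminins were higher and 14 lower. With mitochondrial and ribosomal genes in the total, 29.5% were higher and 9.38% lower, the median moved to 0.54, and 10 of the collagens and laminins were higher and 11 lower.

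**Figure D1:**
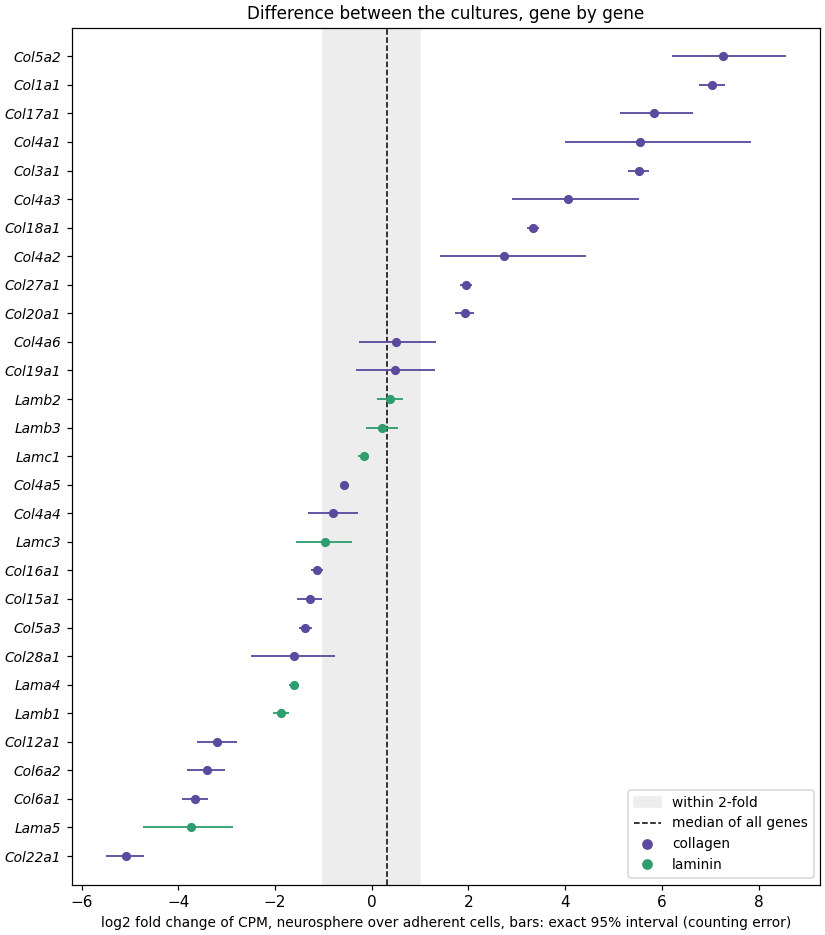
Log2 fold change of CPM, neurosphere over adherent cells, for 29 of the 30 collagen and laminin genes with at least 50 UMIs, with exact 95% intervals for counting error. Points run from −5.09 (Col22a1) to 7.26 (Col5a2); the grey band marks 2-fold in either direction and the dashed line the median of all genes, 0.32.

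The fibrillar collagens gained the most transcripts. Their summed level rose 12.5-fold, from 47.9 to 598 CPM, and their share of collagen UMIs went from 20.4% to 71.5%. Of 8 genes 5 reached the minimum, and of these 4 rose and 1 fell.

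Col1a1, which encodes the main chain of type I collagen, the most abundant collagen of bone and skin, had 116 UMIs in the adherent library against 21368 in that of the neurospheres. This was 2.51 CPM (2.07 to 3.01) against 329 CPM (325 to 333), a log2 fold change of 7.04 (6.77 to 7.31). The gene lies at chr11:94936224-94953042 on the plus strand (GRCm38). By UMIs it ranked 13 among the 37 collagens in adherent cells and 1 in neurosphere cells, where it held 39.4% of all collagen UMIs. At least 1 Col1a1 UMI was present in 2.16% of the adherent cells, and in 69.8% of those from neurospheres. Since neurosphere cells were deeper, cells with at least 5000 UMIs were also thinned to 5000 UMIs each, and the others were left out. This kept 4464 of the 5051 adherent and 4196 of the 4276 neurosphere cells, in which the shares were 1.37% and 52.3%.

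The partner of Col1a1 was scarce in both cultures. Col1a2 encodes the alpha-2 chain, which joins 2 alpha-1 chains in the usual type I molecule, and it had 1 UMI in adherent cells and 23 in neurosphere cells, under the minimum of 50. The ratio of its levels was 16.4, neurosphere over adherent cells, with a counting interval from 2.66 to 675. Its level in neurosphere cells was 0.354 CPM (0.225 to 0.531), and 0.468% of the cells held a UMI. Col1a2 lies on another chromosome, at chr6:4504814-4541544. In neurosphere cells there were 929 Col1a1 UMIs for each Col1a2 UMI (interval 619 to 1466), or 1759 when each level was divided by the exon length of its gene. In adherent cells the UMI ratio was 116 with an interval from 20.4 to 4621, which holds the neurosphere UMI ratio. These are 3′ libraries in which each UMI marks 1 captured transcript, so counts need not grow with exon length. Values per exon length are given here and below for description only, and differences in capture between genes were not corrected.

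Col3a1, the single chain of type III collagen, which forms fine fibrils in vessel walls and soft tissue, had 179 and 11553 UMIs. The adherent level was 3.87 CPM (3.32 to 4.48) and the neurosphere level 178 CPM (175 to 181). The log2 fold change was thus 5.52 (5.31 to 5.74). The share of cells with a UMI was 3.23% and 47.9%, and 1.57% and 33.1% after thinning. Col5a2, the alpha-2 chain of type V collagen, which is built into type I fibrils and limits their width, was nearly absent from adherent cells, with 7 UMIs, and had 1505 UMIs in neurosphere cells. Its level was 0.151 CPM (0.0608 to 0.312) against 23.2 CPM (22 to 24.4). The log2 fold change of 7.26 (6.21 to 8.58) was the highest of the 30 genes, though its interval overlaps that of Col1a1. It was found in 0.139% and 25% of cells, and in 0.0672% and 10.2% after thinning.

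The usual partner of Col5a2 was also scarce, and it fell short of Col5a2 in neurosphere cells only. Col5a1, which supplies the alpha-1 chain, had 9 and 23 UMIs. In adherent cells there were 0.778 Col5a2 UMIs for each Col5a1 UMI (0.246 to 2.35). In neurosphere cells there were 65.4 (43.4 to 104), or 57.9 per exon length. The third type V chain moved the other way. Col5a3, at chr9:20770050-20815067, had 1218 UMIs (26.3 CPM, 24.9 to 27.8) in adherent cells and 661 (10.2 CPM, 9.42 to 11) in neurosphere cells. Its log2 fold change was −1.37 (−1.51 to −1.23), and 19.5% and 12.7% of cells held a UMI.

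Col3a1 and Col5a2 are neighbours on chromosome 1. Col3a1 lies at chr1:45311538-45349706 on the plus strand and Col5a2 at chr1:45374321-45503282 on the minus strand, so that their 3′ ends face each other across 24614 bases. Both rose, to 178 and 23.2 CPM.

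Col27a1, a fibrillar chain known from developing cartilage, had 679 and 3684 UMIs. Its level was 14.7 CPM (13.6 to 15.8) and 56.7 CPM (54.9 to 58.6), a log2 fold change of 1.95 (1.83 to 2.07). It was found in 11.4% and 43.2% of cells, and in 6.45% and 23.7% after thinning. In adherent cells it made up 6.24% of collagen UMIs, close to its 6.79% in neurosphere cells. Col24a1, the last of the fibrillar chains, had 7 and 4 UMIs.

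**Figure D2:**
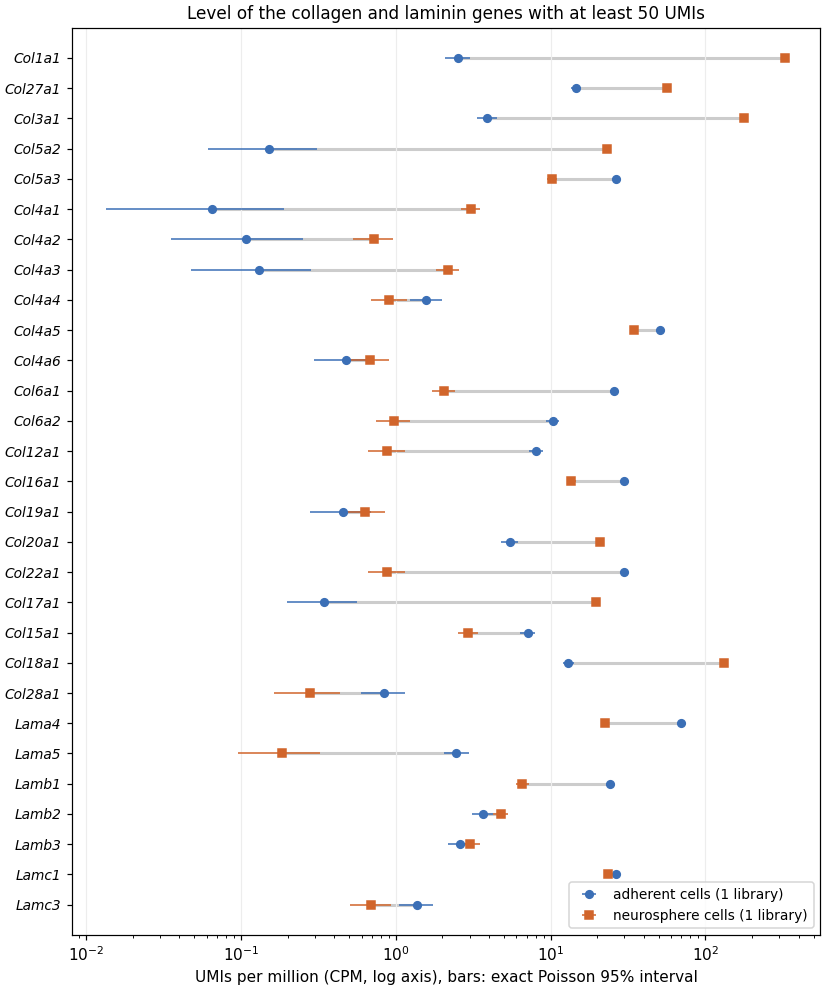
Level in CPM (log axis) of 29 of the 30 genes with at least 50 UMIs in adherent cells (circles) and neurosphere cells (squares), 1 library each, with exact Poisson 95% intervals. Col1a1 stands at 2.51 and 329 CPM and Col22a1 at 29.9 and 0.878 CPM.

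The sequences before the start sites are shown for 7 genes: Col3a1 and Col17a1, which rose over 40-fold, Col1a2, which had 1 and 23 UMIs while Col1a1 rose, the neighbours Col6a1 and Col6a2, which fell together, and the head-to-head pair Col4a5 and Col4a6. They come from RefSeq, build GRCm38.p6, and run 5′ to 3′ on the strand of the gene. Only the stretch of the 250 bases before the start that lies outside every annotated exon is given. Capitals mark 4 short motifs searched on both strands, each as its letters or as their reverse complement: the box CCAAT, the TATA box as TATAAA, the GC box as GGGCGG and the AP-1 motif as TGANTCA. No match in these 7 stretches overlaps another. The stretches lie at chr1:45311288-45311537 (Col3a1, plus strand), chr19:47692095-47692292 (Col17a1, minus), chr6:4505370-4505492 (Col1a2, plus), chr10:76726169-76726294 (Col6a1, minus), chr10:76623631-76623880 (Col6a2, minus), chrX:141475169-141475384 (Col4a5, plus) and chrX:141474077-141474326 (Col4a6, minus). The RefSeq start of Col1a2 lies 804 bases downstream of the start of that gene in GENCODE, so the stretch shown falls between exons inside the GENCODE gene, while the others lie before both starts.
Col3a1: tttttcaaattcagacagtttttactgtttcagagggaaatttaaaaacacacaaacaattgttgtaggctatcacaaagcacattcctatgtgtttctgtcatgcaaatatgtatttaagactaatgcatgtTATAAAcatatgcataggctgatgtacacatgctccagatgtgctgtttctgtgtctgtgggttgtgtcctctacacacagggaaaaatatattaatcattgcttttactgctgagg
Col17a1: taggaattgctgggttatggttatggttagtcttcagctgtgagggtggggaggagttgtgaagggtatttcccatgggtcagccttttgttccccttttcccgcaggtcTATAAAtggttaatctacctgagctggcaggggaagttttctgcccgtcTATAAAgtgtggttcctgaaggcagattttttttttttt
Col1a2: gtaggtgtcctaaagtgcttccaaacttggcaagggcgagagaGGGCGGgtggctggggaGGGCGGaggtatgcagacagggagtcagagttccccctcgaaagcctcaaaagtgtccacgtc
Col6a1: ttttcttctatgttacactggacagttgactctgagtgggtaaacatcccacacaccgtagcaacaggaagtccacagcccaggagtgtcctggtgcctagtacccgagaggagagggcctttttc
Col6a2: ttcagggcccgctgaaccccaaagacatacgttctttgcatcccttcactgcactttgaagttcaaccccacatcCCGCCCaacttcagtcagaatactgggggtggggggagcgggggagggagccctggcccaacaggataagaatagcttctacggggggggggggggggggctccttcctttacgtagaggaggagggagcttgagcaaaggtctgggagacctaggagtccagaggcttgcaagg
Col4a5: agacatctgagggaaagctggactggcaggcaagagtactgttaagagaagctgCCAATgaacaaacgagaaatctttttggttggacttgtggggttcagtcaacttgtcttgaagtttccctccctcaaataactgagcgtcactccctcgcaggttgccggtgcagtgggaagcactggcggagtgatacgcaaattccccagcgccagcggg
Col4a6: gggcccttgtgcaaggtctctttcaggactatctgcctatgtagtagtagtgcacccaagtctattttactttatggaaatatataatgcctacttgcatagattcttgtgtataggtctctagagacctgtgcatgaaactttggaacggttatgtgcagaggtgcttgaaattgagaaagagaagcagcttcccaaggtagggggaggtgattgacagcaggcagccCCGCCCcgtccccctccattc

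Whole windows of the 250 bases before the start, exons included, were found for 35 of the 48 genes, 38 windows in all, and the motif counts rest on these and not on the shorter stretches shown. Of these 38, GGGCGG was in 21 (55.3%, against 32.7% of 32851 windows of all genes), CCAAT in 12 (31.6% against 33.8%), TATAAA in 3 (7.89% against 12.4%) and TGANTCA in 1 (2.63% against 6.75%). The windows of these genes were richer in G and C, with a median of 59.4% against 52.4%. TATAAA was in the windows of Col3a1 and Col17a1, 2 of the 7 genes that rose and had a window, and in none of the 8 that fell. CCAAT was in 4 of the 7 and 3 of the 8, GGGCGG in 3 of the 7 and 5 of the 8, and TGANTCA in 0 of the 7 and 1 of the 8. These numbers are too small to tell the directions apart. A match is only a run of letters.

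The type IV collagens, the chains of the basement membrane net, hardly changed in sum, from 53.5 to 42 CPM, while single chains did. All 6 genes reached the minimum, 3 rose and none fell. The genes come in 3 pairs whose starts face each other, and the pairs behaved differently. Col4a5 led the family in both cultures, with 2366 UMIs (51.1 CPM, 49.1 to 53.2) in adherent cells and 2240 (34.5 CPM, 33.1 to 35.9) in neurosphere cells. Its log2 fold change was −0.57 (−0.65 to −0.48), within 2-fold. The raw shares of cells with a UMI were 33.3% and 35.6%, but 21.3% and 16.1% after thinning, so the order of the raw shares followed the depth. Col4a5 was the most abundant collagen of adherent cells, with 21.7% of collagen UMIs, and the fifth in neurosphere cells, with 4.13%.

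Col4a6, the partner of Col4a5 in smooth muscle and some epithelial basement membranes, starts 1309 bases away on the X chromosome and is read in the other direction. It had 22 and 44 UMIs, so that there were 108 Col4a5 UMIs for each of Col4a6 in adherent cells and 50.9 in neurosphere cells. Col4a1 and Col4a2, the chains found in nearly all basement membranes, were close to absent from adherent cells, with 3 and 5 UMIs. In neurosphere cells they had 198 and 47 UMIs, or 3.05 CPM (2.64 to 3.50) and 0.724 CPM (0.532 to 0.962). Their log2 fold changes were 5.56 (3.99 to 7.85) and 2.74 (1.42 to 4.43). The annotated starts of the genes overlap by 22 bases on opposite strands of chromosome 8.

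The third pair split. Col4a3, a chain of the specialised net of kidney and lung, rose from 6 to 141 UMIs, a log2 fold change of 4.07 (2.91 to 5.54). Col4a4, whose start lies 72 bases from that of Col4a3, had 73 and 59 UMIs, a log2 fold change of −0.80 (−1.32 to −0.28). Thus Col4a4 had the more UMIs of this pair in adherent cells and Col4a3 in neurosphere cells. Divided by exon length, Col4a4 and Col4a3 were at 0.149 and 0.0130 CPM per kb in adherent cells and 0.0856 and 0.218 in neurosphere cells.

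The type VI collagens fell the most as a family, from 37.0 to 3.05 CPM, 12.1-fold, and from 15.7% of collagen UMIs to 0.365%. Type VI forms filaments around cells and is secreted as molecules of an alpha-1 chain, an alpha-2 chain and another chain. Col6a1 had 1187 UMIs (25.6 CPM, 24.2 to 27.1) in the adherent and 133 (2.05 CPM, 1.71 to 2.43) in the neurosphere library, so that its log2 fold change was −3.65 (−3.92 to −3.39). Its share of cells was 19.5% and 2.60%, and 11.4% and 0.929% after thinning. Col6a2 had 477 UMIs (10.3 CPM, 9.40 to 11.3) and 63 UMIs (0.970 CPM, 0.745 to 1.24), a log2 fold change of −3.41 (−3.81 to −3.03), with 8.45% and 1.38% of cells.

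Col6a1 (chr10:76708792-76726168) and Col6a2 (chr10:76595762-76623630) lie on the same strand 85161 bases apart. There were 2.49 Col6a1 UMIs per Col6a2 UMI (2.24 to 2.77) in the adherent library and 2.11 (1.55 to 2.90) in the other, with intervals that overlap. The chains that can fill the third place were scarce in both cultures. Col6a3 had 13 and 1 UMIs, and Col6a4 3 and 1. Col6a5 went from 19 UMIs to 0, at least 6.55-fold lower by its exact interval (8.89-fold against the floor of 3 UMIs). Col6a6 had 13 and 0, at least 4.28-fold lower by its interval (6.08-fold against the floor). In adherent cells there were 91.3 Col6a1 UMIs for each of Col6a3 (53.2 to 172), or 249 per exon length.

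The fibril-associated collagens held 31.5% of the collagen UMIs of adherent cells, more than any other type, but 4.45% of those of neurosphere cells. Of 6 genes 5 reached the minimum, 1 rose and 3 fell. Col22a1, a collagen of tissue junctions such as that of muscle and tendon, fell the furthest of all 30 genes. It had 1385 UMIs (29.9 CPM, 28.4 to 31.5) in the adherent library and 57 (0.878 CPM, 0.665 to 1.14) in the other, for a log2 fold change of −5.09 (−5.50 to −4.71). It was the second collagen of adherent cells by UMIs, found in 19.8% of cells, and in 1.22% of neurosphere cells, with 12.1% and 0.405% after thinning. The gene spans chr15:71795795-72034227 on the minus strand. Col12a1, which decorates type I fibrils in tendon and other dense tissue, had 372 and 57 UMIs, a log2 fold change of −3.19 (−3.62 to −2.79).

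Col16a1, which links fibrils with other matrix and binds integrins, had 1381 UMIs (29.8 CPM, 28.3 to 31.4) and 880 UMIs (13.6 CPM, 12.7 to 14.5). Its log2 fold change was −1.14 (−1.26 to −1.02), just past 2-fold, and it was −0.92 when mitochondrial and ribosomal genes were counted in the total. It was found in 23.5% and 16.8% of cells. Col20a1, the member of this family that rose, had 253 UMIs (5.47 CPM, 4.81 to 6.18) and 1346 UMIs (20.7 CPM, 19.6 to 21.9), a log2 fold change of 1.92 (1.73 to 2.12), in 4.73% and 24.5% of cells. Col19a1 had 21 and 41 UMIs, with an interval that includes no difference (−0.32 to 1.31), and Col14a1 had 16 and 32.

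Both multiplexins were present, and they moved in opposite directions. Col18a1, whose C-terminal fragment endostatin inhibits the growth of vessels, had 603 UMIs in adherent and 8519 in neurosphere cells. Its level was 13.0 CPM (12.0 to 14.1) and 131 CPM (128 to 134), a log2 fold change of 3.33 (3.21 to 3.45). It was found in 10.5% and 63.4% of cells, and in 6.63% and 41.1% after thinning, second to Col1a1 in neurosphere cells. The gene, chr10:77052178-77166548 on the minus strand, overlaps Slc19a1 on the plus strand, and whether the counting used strand is not given in the sources used here. Col15a1, the relative whose product bridges basement membranes to fibrils, had 329 UMIs (7.11 CPM, 6.36 to 7.92) and 190 UMIs (2.93 CPM, 2.52 to 3.37). Its log2 fold change was −1.28 (−1.55 to −1.02), with 6.12% and 4.23% of cells.

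Among the transmembrane collagens only Col17a1 reached the minimum. It encodes the collagen of hemidesmosomes, the plaques that fix epithelial cells to their basement membrane. Col17a1 had 16 UMIs (0.346 CPM, 0.198 to 0.561) in the adherent and 1278 (19.7 CPM, 18.6 to 20.8) in the neurosphere library, for a log2 fold change of 5.83 (5.13 to 6.64). Its share of cells was 0.317% and 18.1%, and 0.224% and 8.17% after thinning. Itgb4, the integrin subunit of hemidesmosomes, went from 218 to 43 UMIs (log2 −2.83). Of the others, Col13a1 had 3 and 3 UMIs, Col23a1 17 and 21, and Col25a1 7 and 1. Col28a1, related to type VI collagen, fell from 39 to 18 UMIs, a log2 fold change of −1.60 (−2.50 to −0.76).

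**Figure D3:**
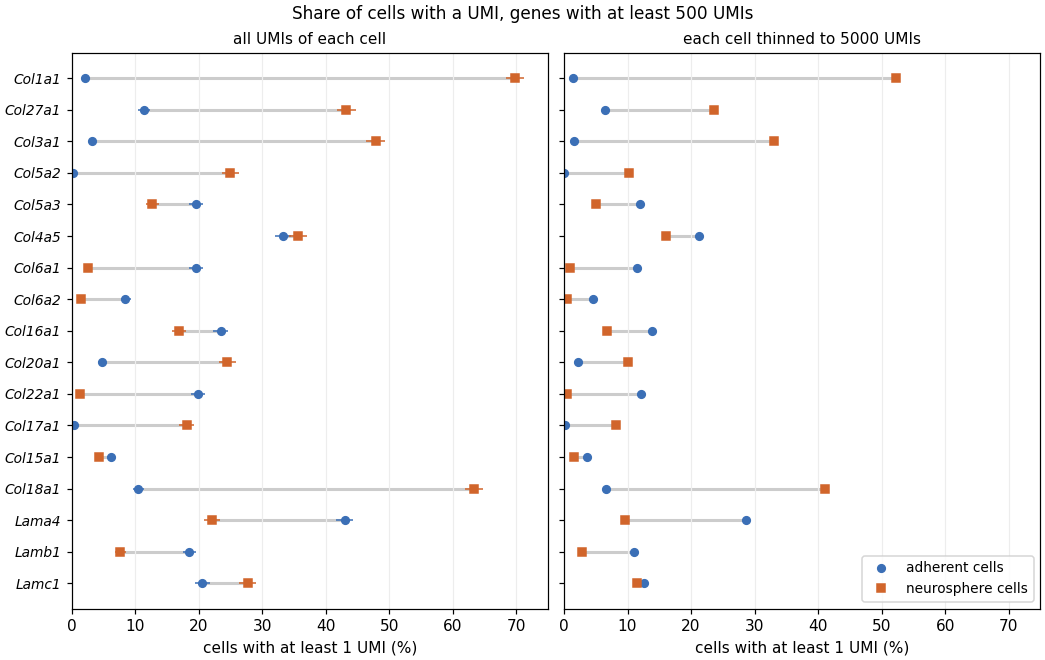
Share of cells with at least 1 UMI of each of the 17 genes with at least 500 UMIs, in adherent (circles) and neurosphere cells (squares). Left, on all UMIs with exact binomial 95% intervals. Right, after thinning to 5000 UMIs the 4464 adherent and 4196 neurosphere cells that had at least 5000. Col1a1 is at 2.16% and 69.8% on all UMIs; for Col4a5 and Lamc1 the order of the cultures is reversed by thinning.

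None of the 8 laminins with at least 50 UMIs was over 2-fold higher in neurosphere cells, beside 21.7% of all genes. The laminin transcripts of both cultures came mainly from 3 genes, Lama4, Lamb1 and Lamc1, whose products together form laminin-411, a laminin of vessel walls that is also known from gliomas. Lama4 had 3197 UMIs (69.1 CPM, 66.7 to 71.5) in the adherent and 1467 (22.6 CPM, 21.4 to 23.8) in the neurosphere library, for a log2 fold change of −1.61 (−1.70 to −1.52). It was found in 42.9% and 22.1% of cells, and in 28.7% and 9.58% after thinning. In adherent cells it had more UMIs than any other of the 48 genes.

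Lamb1 fell as well, from 1116 UMIs (24.1 CPM, 22.7 to 25.6) to 427 (6.57 CPM, 5.97 to 7.23), a log2 fold change of −1.87 (−2.04 to −1.71). Lamc1, the gamma chain of most laminins, did not pass 2-fold, with 1224 UMIs (26.4 CPM, 25 to 28) and 1532 UMIs (23.6 CPM, 22.4 to 24.8). Its log2 fold change was −0.16 (−0.27 to −0.06) and its sign changed in 1 of 10 alternative processings (−0.38 to 0.05). Its share of cells was 20.6% and 27.7%, but 12.5% and 11.5% after thinning.

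The chains therefore stood in other proportions in the neurosphere library. Lama4 and Lamc1 were at 2.61 Lama4 UMIs per Lamc1 UMI (2.44 to 2.79) in adherent cells and at 0.958 (0.891 to 1.03) in neurosphere cells. Per exon length these ratios were 1.79 and 0.656. Lamc1 and Lamb1 were near 1 to 1 in adherent cells, at 1.10 (1.01 to 1.19), and at 3.59 (3.22 to 4) in neurosphere cells. The ratio of Lama4 to Lamb1 moved less, from 2.86 (2.68 to 3.07) to 3.44 (3.08 to 3.84).

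The other laminins were at lower levels. Lama5, the alpha chain of most mature epithelial basement membranes, fell from 114 to 12 UMIs, a log2 fold change of −3.74 (−4.73 to −2.88). Lamc3 had 63 and 45 UMIs and lay just outside the 2-fold call at −0.97 (−1.56 to −0.40). Lamb2 had 169 and 308 UMIs (0.38, 0.10 to 0.66) and Lamb3 121 and 197 (0.21, −0.12 to 0.55). Lama2 had 6 and 15 UMIs, Lama3 12 and 7, and Lama1 1 and 0, both at or under the floor.

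Just inside the 2-fold call were Col16a1 (−1.14) and Col15a1 (−1.28), and just outside were Lamc3 (−0.97) and Col4a4 (−0.80). For 10 of the genes that rose and 10 of the 12 that fell, the whole counting interval lay past 2-fold. The 18 genes under the minimum had between 1 and 48 UMIs over both libraries and were found in at most 0.376% of adherent and 0.748% of neurosphere cells. For 3 of them the interval of the log2 fold change lay wholly above 0 and for 5 wholly below. They included Col7a1 (13 and 30 UMIs), Col8a1 (19 and 2), Col8a2 (7 and 27) and Col26a1 (1 and 11), besides those given above.

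**Figure D4:**
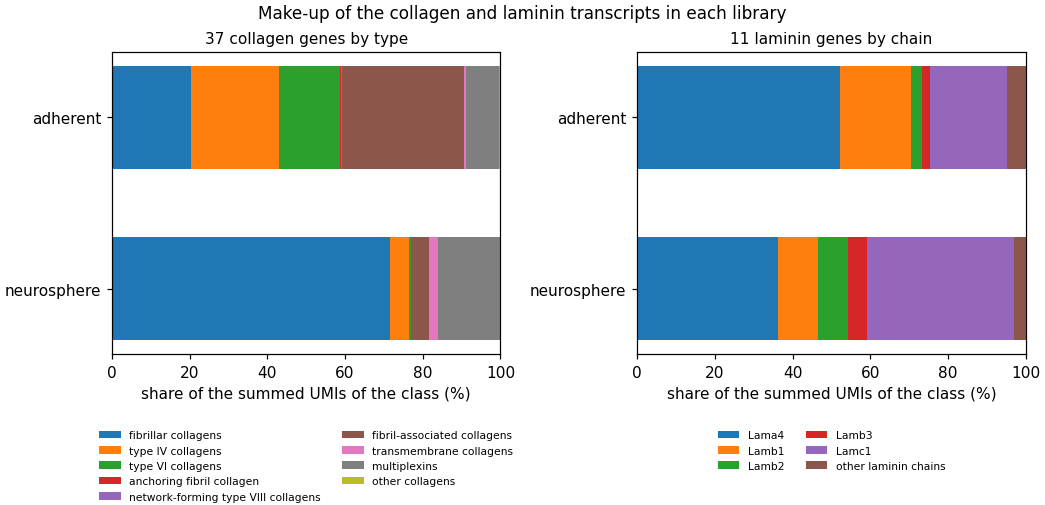
Share of the summed UMIs of the 37 collagen genes by type (left) and of the 11 laminin genes by chain (right) in the adherent and neurosphere libraries. Fibrillar collagens go from 20.4% to 71.5% of collagen UMIs, and Lama4 from 52.3% to 36.1% of laminin UMIs.

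Within the neurosphere library the collagens were not spread evenly over the cells. Col1a1 had a median of 2 UMIs per cell and a maximum of 91, and the 10% of cells with the most Col1a1 held 46.7% of its UMIs. For Col3a1 the median was 0, the maximum 84, and the top 10% of cells held 64.1%. The deepest 10% of cells held 22.2% of all UMIs, 20.1% of the Col1a1 UMIs and 24.9% of the Col3a1 UMIs. After thinning to 5000 UMIs the ratio of variance to mean over 4196 cells, which is 1 for counting noise, was 4.64 for Col1a1, 4.40 for Col3a1 and 2.15 for Col18a1. For the other 9 genes with at least 500 UMIs in neurosphere cells it lay between 1.01 and 1.70, and for the 10 such genes of adherent cells between 0.999 and 1.24.

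Among thinned neurosphere cells, 66.4% held a UMI of Col1a1, Col3a1 or Col5a2, 21.3% held both Col1a1 and Col3a1, and 3.17% held all 3. In adherent cells 2.96% held any of the 3, and none of 4464 cells held all 3, which allows a share of up to 0.0672% (taken as a limit of 3 cells, not as an exact interval). The laminin trio showed the reverse, with Lama4, Lamb1 or Lamc1 in 43.5% of thinned adherent and 21.7% of neurosphere cells, and all 3 in 0.493% and 0.0715%. Rank correlations between genes over thinned cells were weak, from −0.018 to 0.061 over 45 pairs in adherent cells and from −0.071 to 0.20 over 66 pairs in neurosphere cells. The highest were Col1a1 with Col3a1 (0.20) and Col27a1 with Col18a1 (0.16). These cells share a library and the counts are sparse.

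Cells were also clustered within each library, with all collagen and laminin genes left out of the clustering. Clusters are numbered and described by their leading genes, and their cells are not replicates. In neurosphere cells, cluster 0 (627 cells, led by Comp and Pdzd2, median 7623 UMIs) had 405 CPM of Col18a1, 11.3 times the 35.9 CPM of cluster 8 (245 cells, with Aatk among its leading genes). Col17a1 was highest in cluster 9 (234 cells, led by Chit1 and Mt3) at 58.2 CPM, 14.9 times the 3.92 CPM of cluster 4 (347 cells, led by Enpp2 and Mbp). Col5a2 ranged from 31.9 CPM in cluster 2 (528 cells, led by Cenpf and Ccnb1) to 2.71 CPM in cluster 6 (298 cells, led by Tnnt3 and Lpcat2), a ratio of 11.8.

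The ratios between highest and lowest cluster were smaller with coarser clusters (resolution 0.8), at 4.94 for Col18a1, 7.42 for Col17a1 and 3.55 for Col5a2. Of 2 further genes, named after their values were seen, Col1a1 was present in every neurosphere cluster, from 91.0 CPM in cluster 10 (150 cells, led by Ccl2 and Cox6a2) to 465 CPM in cluster 3, each above the 2.51 CPM of the adherent library. Lama4, the other, was highest in cluster 6, at 47.3 CPM, and lowest in cluster 0, at 11.2 CPM.

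In adherent cells the clusters differed less, with 1 exception. Cluster 9 held 46 cells with a median of 2623.5 UMIs, against 8260 in the library, and was led by Lars2, Pcdh9, Dmd and Neat1. It had the highest level of 9 of the 10 genes with at least 500 UMIs, but on few UMIs. Lamc1 was at 191 CPM (24 UMIs, 122 to 284), Col27a1 at 111 CPM (14 UMIs, 60.8 to 187) and Col4a5 at 310 CPM (39 UMIs, 220 to 424). Lamb1 had 7 UMIs there and Col18a1 3. For Col18a1 the ratio to the lowest cluster was 3.57, with an interval that includes no difference (0.657 to 12.8). The level of Neat1, a nuclear noncoding RNA, was 2448 CPM in cluster 9 against 174 CPM in the other cells. The part of nuclear RNA in these values was not tested. The ratios of highest to lowest cluster were 13.8 for Lamc1, 13.7 for Col27a1 and 12.6 for Col4a5. Without this cluster, a choice made after seeing the data, they were 2.51, 2.68 and 2.76.

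**Figure D5:**
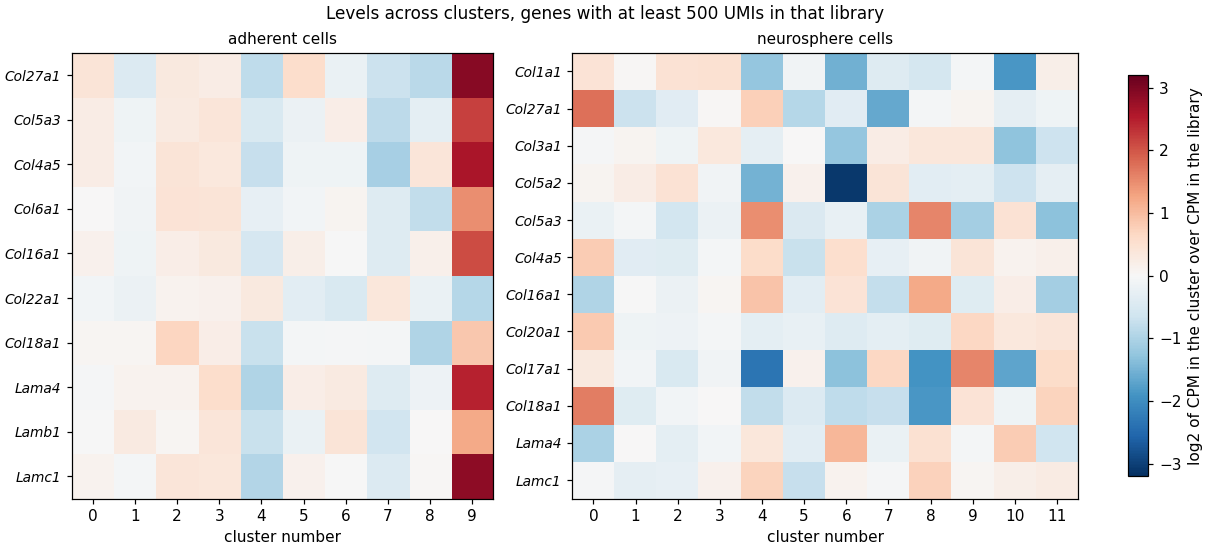
Log2 ratio of CPM in each cluster over CPM in its library, for the 10 genes with at least 500 UMIs in adherent cells (left) and the 12 in neurosphere cells (right). Adherent cluster 9 (46 cells) is red for 9 of 10 genes, and Col18a1 is highest in neurosphere cluster 0, at 405 CPM.

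The companion genes are given by list, beside all genes with at least 50 UMIs, of which 21.7% rose, 11.7% fell and 66.6% lay within 2-fold, with a median log2 fold change of 0.32. Of 19 genes that modify and fold collagen chains, 18 were in the files under their symbol and 17 reached the minimum. Of these 2 rose (11.8%), 1 fell (5.88%) and 14 lay within 2-fold (82.4%), with a median of 0.02. Serpinh1, the collagen chaperone Hsp47, rose from 147 to 401 CPM (log2 1.45), and P3h1, which hydroxylates proline at the 3 position, rose from 33.5 to 71.3 CPM (1.09). P3h2, its relative with a preference for type IV collagen, fell from 35.0 to 5.17 CPM (−2.76), and Fkbp10, a further chaperone, had 55.1 and 31.0 CPM (−0.83). Ppib, a proline isomerase, was the most abundant at 1183 and 1199 CPM.

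Of 15 genes for processing and crosslinking 9 reached the minimum, 1 rose (11.1%, beside 21.7% of all genes) and 5 fell (55.6%, beside 11.7%), with a median of −1.20. Pcolce2, an enhancer of propeptide removal and the most abundant of the list, fell from 99.7 to 15.4 CPM (−2.69). Pxdn, which crosslinks type IV collagen, fell from 8.88 to 1.66 CPM (−2.42), Adamts14, a procollagen peptidase, from 10.0 to 1.94 CPM (−2.37), and Tgm2, a transglutaminase, from 8.08 to 3.16 CPM (−1.36).

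Of 14 basement membrane partners 8 reached the minimum, 2 rose (25%, near the 21.7% of all genes) and 4 fell (50%, beside 11.7%), with a median of −1.05. Sparc, which binds collagen and was the most abundant, fell from 1247 to 170.2 CPM (−2.87). Fn1 (fibronectin) fell from 48.0 to 9.30 CPM (−2.37) and Ntn4, a netrin that binds laminin, from 2.12 to 0.123 CPM (−4.10), while Smoc1, a relative of Sparc, rose from 44.5 to 213 CPM (2.26). Of 15 receptors 14 reached the minimum, 3 rose (21.4%, the share of all genes being 21.7%) and 6 fell (42.9%, beside 11.7%), with a median of −0.55. Ddr1, a receptor kinase for collagens, rose from 22.2 to 137 CPM (2.62), while Itga1, of the collagen receptor integrins, fell from 71.7 to 9.96 CPM (−2.85) and Itga7, of the laminin receptors, from 4.73 to 0.431 CPM (−3.46). Itgb1, their common beta subunit and the most abundant, had 359 and 373 CPM (0.06).

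Of 16 small leucine-rich and fibril-associated proteins 9 reached the minimum, 4 rose (44.4%, beside 21.7% of all genes) and 4 fell (44.4%, beside 11.7%), with a median of 0.57, beside 0.32 for all genes. Dcn (decorin), which binds type I fibrils, went from 1 to 3606 UMIs, a log2 fold change of 11.33 with an interval from 8.85 to 16.63. Lum (lumican) had 0 and 143 UMIs, at least 4.77 higher on the log2 scale by its exact interval (5.09 against the floor of 3 UMIs). Fbn2 (fibrillin-2), the most abundant, fell from 126 to 14.2 CPM (−3.15), and Thbs1 (thrombospondin-1) from 7.60 to 0.785 CPM (−3.28). Bgn, Kera and Prelp had no UMI in either library.

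Dcn, Lum and Postn are also markers of fibroblasts, the usual makers of type I and III collagen. Of 8 fibroblast markers 6 reached the minimum. Of these 4 rose (66.7%, beside 21.7% of all genes), namely Dcn, Lum, Postn and Fap, and none fell (beside 11.7%). The summed level of the 8 went from 9.46 to 67.2 CPM, of which Dcn was 55.5, while Pdgfra had 306 and 316 UMIs and Thy1 0 and 7. Of the neurosphere cells, 2733 (63.9%) had no UMI of any of the 8 markers. They held 60.7% of the Col1a1 UMIs, at 332 CPM against 324 CPM in the cells with a marker. For Col3a1 the levels were 150.3 and 219 CPM and for Col18a1 135 and 126 CPM. Split by Dcn alone, the 3133 cells without and the 1143 with a UMI had 326 and 335 CPM of Col1a1, 149.8 and 247 CPM of Col3a1, and 128 and 138 CPM of Col18a1. Col3a1 was lower in the cells without in both splits. For Col1a1 and Col18a1 the order turned between the splits, but their levels lay close and no interval was computed, so this order is not read further. In the neurosphere cells without any of the 8 markers, the log2 fold changes of these 3 genes over all adherent cells were 7.05, 5.28 and 3.37.

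Markers of other cell types were counted as well, to be read beside the 21.7% of all genes that rose and the 11.7% that fell. Of 7 endothelial markers 3 reached the minimum, 2 rose and none fell, with sums of 26.2 and 28.3 CPM and no Cdh5 UMI in either library. Of 6 mural cell markers 2 reached the minimum, 1 rose and 1 fell (21.7 and 35.5 CPM), and of 8 immune cell markers 2 reached it, none rose and 1 fell (12.9 and 6.07 CPM), with no Tyrobp UMI in either library. Of 8 cartilage markers 7 reached the minimum, 5 rose (71.4%, beside 21.7% of all genes) and none fell. The 8 went from 649 to 3336 CPM in sum, while Sox9 had no UMI in either library. Matn1, with 0 and 7603 UMIs, split the neurosphere cells into 1579 with and 2697 without a UMI, with 361 and 310 CPM of Col1a1. Col5a2 (26.1 and 21.4 CPM), Col27a1 (71.5 and 47.8), Col18a1 (163 and 112) and Col17a1 (20.8 and 19.0) were likewise higher in the cells with Matn1, whereas Col3a1 was lower, at 161 against 188 CPM. Comp, also a cartilage marker, had a UMI in 562 neurosphere cells. The 562 cells with and the 3714 without one had 326 and 329 CPM of Col1a1, 159 and 181 of Col3a1, 214 and 120 of Col18a1 and 94.6 and 51.4 of Col27a1. Of the 10 astrocyte and glioma markers 9 reached the minimum, 1 rose (11.1%) and 2 fell (22.2%), with sums of 6607 and 3004 CPM. The libraries held 1 cell line and no cell type that should lack these genes, so a background share of cells from free RNA was not measured.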

How the data were processed

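Single-cell 3′ libraries (10x Genomics, v3 chemistry) of adherent and neurosphere GL261 cells were processed by the authors with Cell Ranger 7.0.1 against mm10, per the submitters' processing notes. The deposited matrices hold raw UMI counts per gene and cell barcode. Whether intronic reads were counted is not given in the sources used here. Mitochondrial and ribosomal protein genes were removed, then cells under 1000 UMIs, and under 1250 genes (adherent) or 2250 genes (neurosphere), which left 5051 of 5764 and 4276 of 4951 barcodes. No doublet caller was run. Of the genes with at least 50 UMIs, 1 is counted but not reported here by itself.

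Counts were summed per library and divided by the library's UMIs. CPM has exact Poisson, shares of cells exact binomial, and ratios exact conditional 95% intervals (scipy 1.17.1). With 1 library per culture no model across samples could be fitted and no p-value is given. A gene counts as higher or lower when it has at least 50 UMIs over both libraries and a point estimate past 2-fold; those changes alone are described as rising or falling. Genes with at least 500 UMIs are described in full, the others by name when past 2-fold or at 0 UMIs in a library, and by counts and ranges otherwise; of each companion list, the 4 genes with the largest change and the most abundant. For clusters, the 3 genes with the largest ratio were named. The genes and all lists were chosen with earlier results of these data known. Cells were clustered with Seurat 5.3.0 (17 and 18 principal components, 2000 variable genes, resolution 1). Positions and exon lengths are from GENCODE for GRCm38, in which all 48 genes were matched. TMM factors are from edgeR 4.0.16. The code was tested on simulated data.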

Additional observations from a re-analysis of the deposited data

How the results depend on the processing

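The counts of 10 genes higher and 12 lower, and the median of the 30 genes, were recomputed under 13 alternatives: other cell filters, TMM scaling, mitochondrial and ribosomal genes in the total, thinned cells, equal weight for every cell, a length trend removed, other minimum counts and a call on the whole interval. The counts stayed between 8 and 12 higher and between 9 and 14 lower, and all within 1.5 times of the reported ones. The median of −0.37 changed sign only with a minimum of 20 UMIs, at 0.30, where 38 genes were counted. It moved by over 1.5 times to −0.15 with mitochondrial and ribosomal genes in the total, −0.16 with a minimum of 200 UMIs, −0.58 under TMM scaling, −0.57 with the length trend removed and −0.57 without the cells highest in UMIs. Shared calls were 22 of 22 under TMM scaling and 17 with a minimum of 200 UMIs. Cluster ratios moved beyond their counting interval. With clusters under 50 cells left out, chosen after seeing the data, those of adherent cells were 2.51 for Lamc1, 2.68 for Col27a1 and 2.76 for Col4a5. At resolution 0.8 those of neurosphere cells were 7.42 for Col17a1, 3.55 for Col5a2 and 4.94 for Col18a1, and with the collagen and laminin genes kept among the variable genes 3.44 for Col5a2 and 6.03 for Col18a1. The cause was not tested.

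Of the 18 genes under 50 UMIs, the counting interval included no difference for 10. The tested genes span a median of 114 kb, against 22.6 kb for all tested genes. Culture and library cannot be told apart. No paired analysis was possible because each culture has 1 library, and no library was left out.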
